A study of Mus musculus with 12 samples.

Results

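Genes of the lipid droplet surface and of the breakdown of stored fat were followed in mouse soleus, a calf muscle with many slow, oxidative fibres. The 10 genes were chosen by symbol for their role, namely the coat proteins Plin2, Plin3, Plin4 and Plin5, the CIDE proteins Cidea and Cidec, the lipases Pnpla2, Lipe and Mgll, and the lipase inhibitor G0s2. The choice was made with earlier results of these data known. All 10 were among the 28997 genes of the authors' tables, and all 10 had a total of at least 100 normalised reads. Messenger RNA of 12 mice was sequenced in 4 groups of 3, which were Cdh5Cre-NOX1CKO and Cdh5cre-WT mice under a high fat diet and under chow, for 8 weeks. All 12 mice are labelled with Cdh5cre, which is driven by a promoter of endothelial cells, so the conditional loss of Nox1 (an NADPH oxidase gene) is meant for those cells, while the RNA came from whole muscle. The sources used here give neither age nor sex. The authors' tables compare groups coded G1 to G4, and the labels used here do not say which genotype or diet a code stands for. Groups are therefore called by their codes, and which factor goes with a change cannot be told apart. The series title names endothelial NOX1, obesity and the mitochondria of muscle as the subject of the study.

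Muscle fibres keep triglyceride in droplets that are bounded by a single layer of phospholipid and coated with perilipins. Stored fat is released in steps: ATGL (encoded by Pnpla2) takes the first fatty acid from triglyceride, hormone-sensitive lipase (Lipe) acts on diglyceride, and monoglyceride lipase (Mgll) acts on monoglyceride. The protein encoded by Abhd5 activates ATGL and that of G0s2 inhibits it. In oxidative muscle, perilipin 5 lies where droplets touch mitochondria.

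The tables give a total over the 12 libraries, taken here as normalised, and no value per mouse. Group means were rebuilt from the total and the fold changes, and their standard errors (SE) from the deposited p-values. Levels below are normalised reads per library as a group mean ± standard error for 3 mice. A single value of variation per gene was used for all groups, so these errors do not show the spread within any group by itself. The totals came to a mean of 24905255 normalised reads per library. Markers of muscle were high, with a mean of 551793 normalised reads for the muscle actin gene Acta1. The slow myosin gene Myh7 had 250037 and the fast myosin gene Myh2 had 372983. That the muscle is soleus rests on the label. Nox1, the targeted gene, was at a mean of 2.1 normalised reads per library, too few to check the groups against their labels. As the samples are whole muscle, fewer cells of a type and less RNA per cell cannot be told apart. A gene was called where its adjusted p was under 0.05.

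The letters upstream of 4 genes called below are shown, 3 as higher (Plin2, Pnpla2, Lipe) and 1 as lower (Plin3). Of the start sites of called genes, these are the ones whose windows overlap annotated exons by at most 11 bases. Those of Plin5 and Mgll and start site 1 of Lipe overlap exons by 47 bases or more and are not shown. The bases just after the start matched an annotated transcript of the gene for Plin2 and Plin3. No such match was found for Pnpla2 or for start site 2 of Lipe. Sequences are those of RefSeq on GRCm38.p6, 250 bases up to the start site, on the strand of the gene. Capitals mark matches on either strand to a set of 5 motifs. They are the DR1 element bound by PPAR with RXR (AGGTCA repeated after 1 base, up to 2 mismatches allowed), a single AGGTCA (which can lie within the DR1), the FOXO motif GTAAACA, the GC box GGGCGG and the E-box CACGTG.
Plin2, chr4:86670060-86670309, minus strand: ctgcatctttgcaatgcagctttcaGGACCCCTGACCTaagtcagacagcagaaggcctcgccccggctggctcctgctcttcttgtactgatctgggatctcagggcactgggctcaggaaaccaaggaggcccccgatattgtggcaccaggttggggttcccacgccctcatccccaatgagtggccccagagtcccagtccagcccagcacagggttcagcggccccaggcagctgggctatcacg
Plin3, chr17:56290512-56290761, minus strand: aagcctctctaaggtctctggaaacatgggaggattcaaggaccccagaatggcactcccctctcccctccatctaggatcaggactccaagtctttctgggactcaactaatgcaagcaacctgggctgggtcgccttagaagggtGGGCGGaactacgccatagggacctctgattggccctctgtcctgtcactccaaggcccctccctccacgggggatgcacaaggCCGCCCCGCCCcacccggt
Pnpla2, chr7:141454938-141455187, plus strand: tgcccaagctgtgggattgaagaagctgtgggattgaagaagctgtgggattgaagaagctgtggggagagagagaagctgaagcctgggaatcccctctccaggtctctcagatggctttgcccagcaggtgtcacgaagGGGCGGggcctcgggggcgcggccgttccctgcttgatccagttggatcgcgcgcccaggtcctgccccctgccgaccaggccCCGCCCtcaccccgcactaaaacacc
Lipe, start site 2, chr7:25390113-25390362, minus strand: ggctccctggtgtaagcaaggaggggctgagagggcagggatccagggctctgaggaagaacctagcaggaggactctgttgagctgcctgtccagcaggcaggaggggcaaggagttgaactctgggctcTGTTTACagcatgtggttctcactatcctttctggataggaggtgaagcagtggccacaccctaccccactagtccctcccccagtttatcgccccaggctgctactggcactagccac

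Of the 10 genes 9 matched in the promoter table, all but Cidea, with 13 start sites. The DR1 was found at 1 of the 13, that of Plin2 from 225 to 213 bases before its start, and 3.24% of all 32851 windows of this length held such a match. A single AGGTCA stood at 2 of the 13 start sites against 14% of all windows, FOXO letters at 2 against 3.17%, E-boxes at 2 against 6.02% and GC boxes at 7 against 32.7%. Among the windows not shown, start site 1 of Lipe holds GC boxes and an E-box, Plin5 a single AGGTCA and GC boxes, and Mgll the FOXO letters, an E-box and a GC box. The window shown for Lipe holds the FOXO letters from 119 to 113 bases before the start. These matches describe letters and were not tested as binding sites.

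Plin4 was the most abundant coat gene and differed least between groups. Its level was 10524 ± 911 in G4, 10534 ± 912 in G3, 9511 ± 823 in G2 and 11145 ± 964 in G1. The highest group mean was 1.17 times the lowest, which is within the errors. Per kilobase of its longest coding transcript, Plin4 had a mean of 1812 normalised reads, against 859.7 for Plin5, 497 for Plin2 and 349 for Plin3. Perilipin 4 is a long coat protein that binds droplets through repeated amphipathic stretches. Its log2 fold change in the authors' deposited tables was 0.15 for G4 against G2 and -0.08 for G3 against G1, and the 95% interval for G4 against G2 ran from -0.20 to 0.49.

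Plin2 and Plin5 were higher in G4 than in G2. Plin2 encodes the widespread coat protein of cytosolic droplets, and its level was 1068 ± 64.9 in G4, 1138 ± 69 in G3, 683 ± 42.5 in G2 and 865 ± 53.1 in G1. Both G3 and G4 lay above G1 and G2 by more than the errors of the means. In the authors' deposited table for G4 against G2, Plin2 rose by 0.64 on the log2 scale (implied SE 0.13, adjusted p = 1.08e-04), or 1.56-fold. For G3 against G1 the authors' deposited table gave 0.40 with an adjusted p of 0.353, which did not pass.

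Plin5 had the same order of groups as Plin2, with 1990.2 ± 173 in G4, 2109.6 ± 183 in G3, 1148 ± 100.4 in G2 and 1582 ± 138 in G1. Its rise for G4 against G2 in the authors' deposited table was 0.79 (implied SE 0.18, adjusted p = 0.00192), or 1.73-fold. The value for G3 against G1 in the authors' deposited table, 0.42, did not pass. Neighbours in this order (G2, G1, G4, G3) did not differ past the threshold for Plin2 or for Plin5.

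Plin3 lay on the other side. It encodes a coat protein that is soluble in the cytosol and moves to nascent droplets, and its level was 1098 ± 88.4 in G4, 1019.7 ± 82.3 in G3, 1553 ± 124 in G2 and 1421 ± 114 in G1. In the authors' deposited tables the log2 was -0.50 for G4 against G2 (adjusted p = 0.108) and -0.48 for G3 against G1 (adjusted p = 0.585), neither called alone. These comparisons share no mouse, but their errors rest on the same variation per gene. Averaged over both, Plin3 fell by 0.49 (SE 0.12, adjusted p = 0.00336), so that G3 and G4 together held a 1.4-fold lower level than G1 and G2.

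On the per-kilobase scale the makeup of the coat genes differed accordingly, without a test. Plin5 took 27.1% of the summed perilipin reads per kilobase in G4, 28.1% in G3, 19.1% in G2 and 22.2% in G1. Plin3 took 8.15% in G4, 7.41% in G3, 14.1% in G2 and 10.9% in G1. Plin3, Plin4 and Plin5 lie near each other on chromosome 17 and are all read from the minus strand (GRCm38, 56277476 to 56292873, 56100591 to 56109803 and 56111601 to 56117596), yet their values ran in different directions, with Plin5 positive, Plin4 near 0 and Plin3 negative for G4 against G2.

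**Figure D1:**
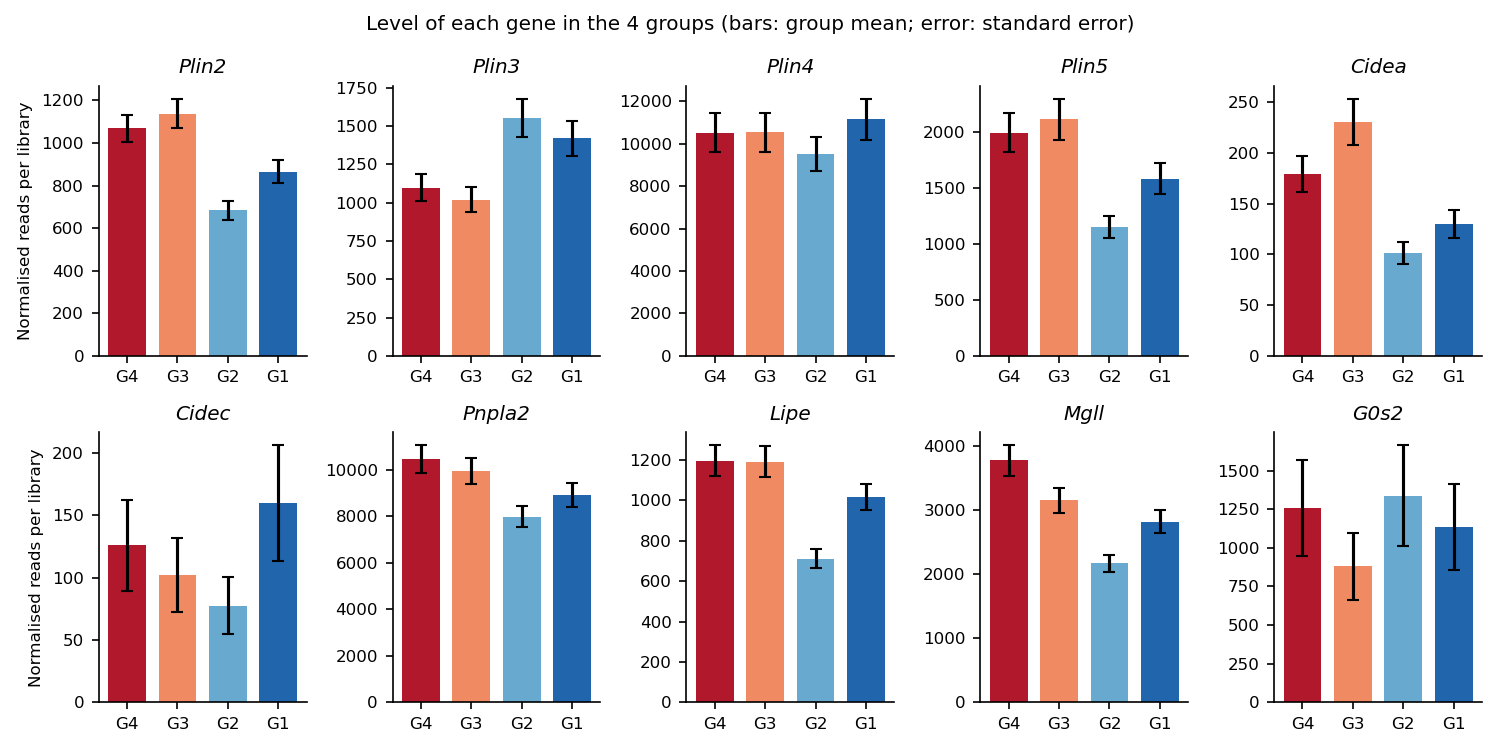
Level of each of the 10 genes in G4, G3, G2 and G1, as normalised reads per library on a linear axis from 0. Bars are rebuilt group means and error bars their standard errors for 3 mice, from a variation per gene shared by all groups. Plin2, Plin5 and Cidea are higher in G4 and G3 than in G2 and G1, Plin3 is lower, and Cidec and G0s2 have wide errors.

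Cidea was the one gene of the 10 called in both comparisons that share no mouse. CIDE proteins sit where droplets meet and move lipid between them, and Cidea is best known from brown fat. Its level was 179 ± 17.8 in G4, 230.5 ± 22.5 in G3, 101 ± 10.8 in G2 and 129.8 ± 13.4 in G1. It rose by 0.82 for G4 against G2 (adjusted p = 0.0138) and by 0.83 for G3 against G1 (adjusted p = 0.0281) in the authors' deposited tables, with implied SEs of 0.21 and 0.20. The difference between the rises was -0.01 on the log2 scale with a standard error of 0.29. Averaged over both, the rise was 0.82 (SE 0.15, adjusted p = 6.61e-06), or 1.77-fold. The annotation has a transcript on the opposite strand, B430212C06Rik, which overlaps Cidea by 500 bases with a total of 190.8 normalised reads over all libraries. No source used here says whether counting took account of strand.

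Cidec, whose protein enlarges droplets in white fat, gave no call. Its level was 126 ± 36.4 in G4, 102 ± 29.7 in G3, 77.6 ± 22.7 in G2 and 159.7 ± 46.2 in G1. The log2 was 0.69 for G4 against G2 and -0.65 for G3 against G1 in the authors' deposited tables, each with an implied standard error of 0.59. The interval for G4 against G2 ran from -0.47 to 1.86, an interval that holds both 0 and the value of Cidea.

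The 3 lipases were higher in G4 than in G2. Pnpla2 was the most abundant of them, with 10462 ± 591 in G4, 9949 ± 562 in G3, 7975 ± 451 in G2 and 8911 ± 504 in G1. Per kilobase it held 75.9% of the summed lipase reads in G4, 77.3% in G3, 80.5% in G2 and 77.6% in G1. Its rise for G4 against G2 in the authors' deposited table was 0.39 (implied SE 0.12), and its adjusted p of 0.0499 lay at the threshold. The call was lost when p-values were adjusted over genes with a total of at least 100 (adjusted p = 0.0527).

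Lipe was lowest in G2, with 1196 ± 76.5 in G4, 1191 ± 76.1 in G3, 712 ± 46.5 in G2 and 1017 ± 65.4 in G1. In the authors' deposited table it rose by 0.75 for G4 against G2 (implied SE 0.13, adjusted p = 7.85e-06). For G2 against G1 the authors' deposited table gave -0.51 with a p of 9.78e-05 before adjustment, and the adjusted p did not pass. G4 and G3 differed by 0.01 on the log2 scale in the authors' deposited table, with an implied standard error of 0.13.

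Mgll had the smallest adjusted p of the 10 genes. Its level was 3774 ± 236 in G4, 3151 ± 198 in G3, 2169 ± 137 in G2 and 2818 ± 177 in G1. In the authors' deposited table for G4 against G2 it rose by 0.80 (implied SE 0.13, adjusted p = 5.15e-07), or 1.74-fold. The value for G3 against G1 in the authors' deposited table was 0.16 and did not pass. The difference between these values, the interaction, was 0.64 with a 95% interval from 0.28 to 0.99, a p of 4.28e-04 and an adjusted p of 0.439, so it failed the correction over 15494 genes. For Lipe the interaction was 0.52 (0.16 to 0.88), with an adjusted p of 0.97. Unlike the coat genes above, Mgll was highest in G4, and its value for G4 against G3 in the authors' deposited table was 0.26 with a p of 0.0418 before adjustment.

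G0s2, the inhibitor of ATGL, gave no call and no clear order. Its level was 1258 ± 308 in G4, 880.3 ± 216 in G3, 1336 ± 327 in G2 and 1134 ± 278 in G1. The log2 was -0.09 for G4 against G2 and -0.37 for G3 against G1 in the authors' deposited tables, with an implied standard error of 0.50. Per kilobase, Pnpla2 stood at 2.76 times G0s2 in G4, 3.75 times in G3, 1.98 times in G2 and 2.61 times in G1, which was not tested. All 1057 bases of G0s2 are overlapped by Lamb3 on the opposite strand, with a total of 1928 normalised reads against 13828 for G0s2, so its counts are uncertain if strand was not used.

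**Figure D2:**
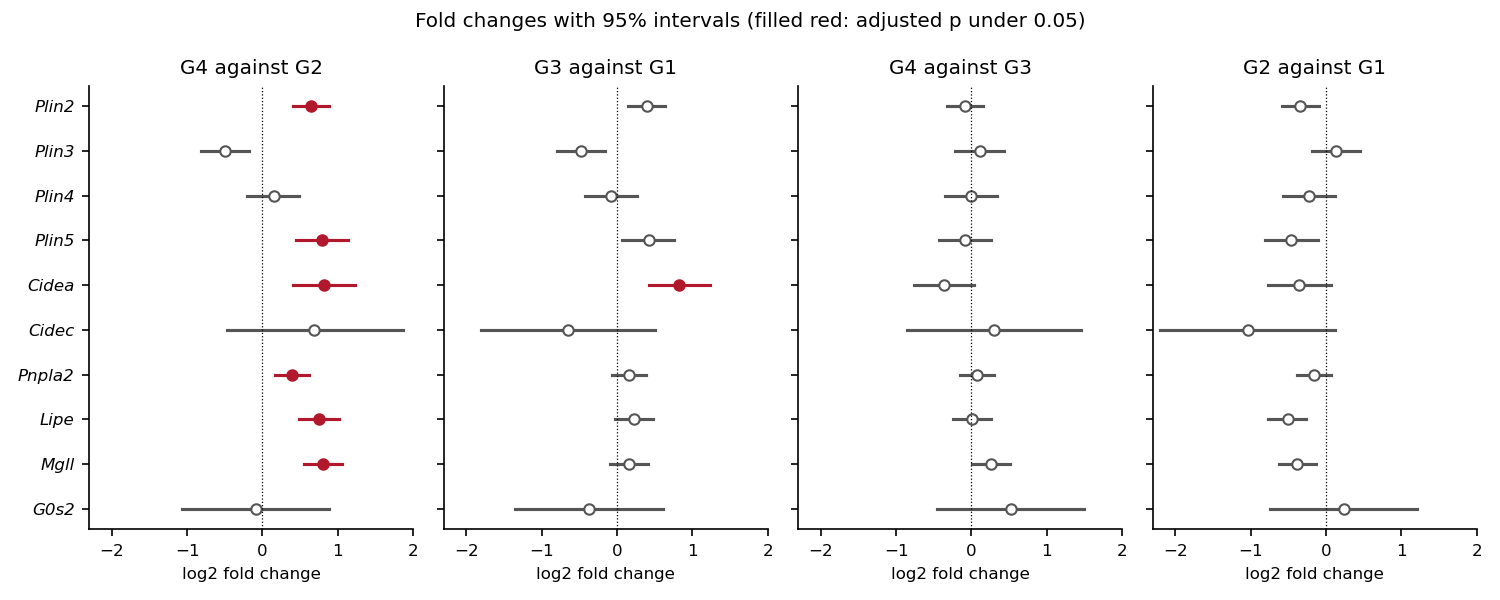
Log2 fold changes of the 10 genes in the 4 comparisons, with 95% intervals from the implied standard errors. Filled red points passed an adjusted p of 0.05. They number 6 for G4 against G2, 1 for G3 against G1 and 0 for G4 against G3 and G2 against G1.

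Counted together, 6 of the 10 genes were called higher and 0 lower for G4 against G2 (Plin2, Plin5, Cidea, Pnpla2, Lipe and Mgll), where 1.02% of the 14539 genes given an adjusted p were called higher and 0.351% lower in the authors' deposited table (1.38% in all). The median log2 of the 10 was 0.67, and that of all genes with a total of at least 100 was 0.000. For G3 against G1, 1 of 10 was called higher, Cidea, and 0 lower, against 0.169% and 0.0414% of 28997 genes in the authors' deposited table (0.21% in all), and the median of the 10 was 0.16. At an unadjusted p under 0.05 it was 4 of 10 against 5.63% of 15494 genes for G3 against G1, and 7 of 10 against 9.06% for G4 against G2. The 10 genes are not replicates of a group, so no test was made over them. They were chosen with earlier results of these data known, so the shares do not stand as independent support.

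For G4 against G3, 0 of 10 were called, against 0.0394% of 17752 genes in the authors' deposited table, and 1 of 10 (Mgll) had an unadjusted p under 0.05 against 4.83% of 15494 genes. For G2 against G1, 0 of 10 were called, against 0.00639% of the 15652 genes in the authors' deposited table and 0.00645% of 15494 genes after rebuilding. Here 4 of 10 (Plin2, Plin5, Lipe and Mgll, all with negative values) had an unadjusted p under 0.05 against 2.35% of genes. No gene in the deposited G2 against G1 table has a positive log2, and the values of the 2 genes missing there were rebuilt as 0.13 for Plin3 and 0.24 for G0s2, with standard errors of 0.16 and 0.50.

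Averaged over the comparisons of G4 with G2 and of G3 with G1, 7 of 10 genes were called, 6 higher and 1 lower, against 1.21% and 0.439% of 15494 genes (1.65% in all). At an unadjusted p under 0.05 it was the same number, 7 of 10, against 9.74%. The 6 that rose were Cidea (0.82), Plin5 (0.60), Plin2 (0.52), Lipe (0.49), Mgll (0.48) and Pnpla2 (0.28, adjusted p = 0.0457). The one that fell was Plin3. Averaged the other way, G2 and G4 over G1 and G3, 0 of 10 were called against 0.0452% of genes, and 4 of 10 had an unadjusted p under 0.05 against 3.12%. No interaction was called among the 10, against 0.00645% of genes, and 2 of 10 (Lipe and Mgll) had an unadjusted p under 0.05 against 4.12%.

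**Figure D3:**
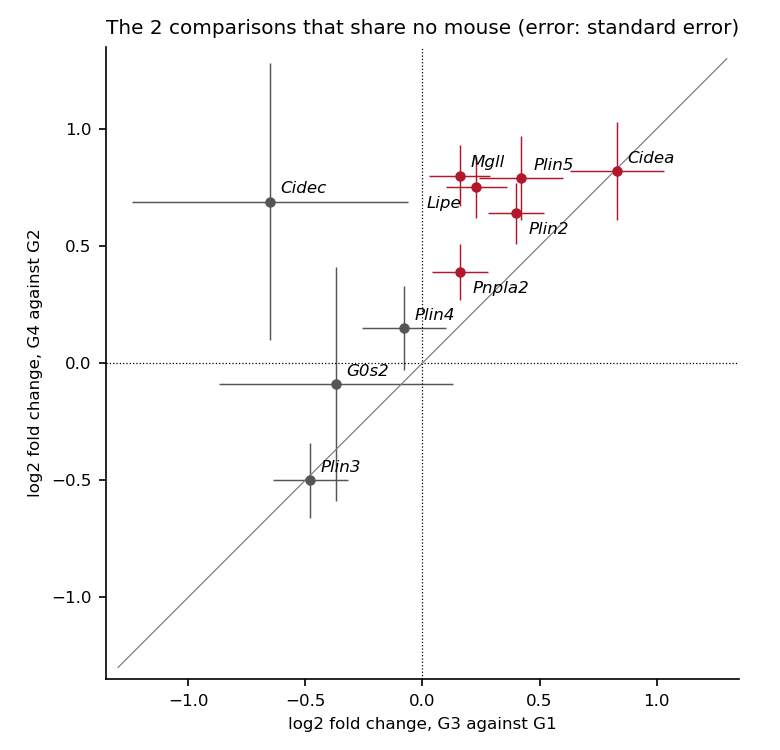
Log2 fold change for G4 against G2 (vertical) and for G3 against G1 (horizontal) of each gene, with standard errors and the line of equal values. Red marks genes called for G4 against G2, and the comparisons share no mouse. Cidea and Plin3 lie on the line, and Mgll and Lipe lie above it, with interactions of 0.64 and 0.52 that failed the correction.

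Values for G3 against G2 and for G4 against G1, which the authors' tables do not compare, were rebuilt after the others were seen. For G3 against G2, 5 of 10 were called higher and 1 lower, against 0.703% and 0.239% of 15494 genes (0.942% in all), and 7 of 10 had an unadjusted p under 0.05 against 7.27%. Cidea (1.19), Plin5 (0.88), Plin2 (0.74), Lipe (0.74) and Mgll (0.54) rose on the log2 scale and Plin3 fell by 0.61 (adjusted p = 0.0295). For G4 against G1, 0 of 10 were called against 0.329% of genes, and 5 of 10 had an unadjusted p under 0.05 against 5.43%. Mgll had 0.42 there with an adjusted p of 0.159.

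Other genes of the pathway were taken from wider lists, also chosen with earlier results of these data known. Of 18 other droplet proteins 15 had a total of at least 100, and 0 were called in any of the 4 comparisons, with medians from -0.04 to 0.02. With at most 1.38% of all genes called in a comparison, that of G4 against G2, a count of 0 in a list of this size is near the background. Fitm2 and Fitm1, which help droplets to form at the endoplasmic reticulum, had 0.13 and -0.12 for G4 against G2 in the authors' deposited table. Of 15 other genes of lipolysis 13 were measured at that depth, and 1 was called higher and 0 lower for G4 against G2, the fatty acid binding protein gene Fabp4 with 0.37 in the authors' deposited table. Abhd5, the activator of ATGL, had levels of 1111 in G4, 1195 in G3, 1124 in G2 and 1171 in G1 with no call, and Pnpla2 stood at 11.3 times Abhd5 per kilobase in G4 against 8.54 times in G2. Lpl, the lipoprotein lipase gene, had the highest level of the list, with 59811 in G4, 62067 in G3, 59486 in G2 and 63064 in G1. Of 24 genes of the control of lipolysis by adrenergic signals and insulin 22 were measured, and 0 were called in any of the 4 comparisons, again near the background of at most 1.38%, with medians from -0.04 to 0.02.

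Several of the 10 genes are also expressed by fat cells, and markers of fat cells were detected in these samples at widely different levels. Means were 38356 normalised reads for Car3, 4463 for Fabp4, which endothelial cells also express, and 455 for Cfd. Plin1 and Adipoq, with means of 127 and 131, stood at the level of Cidea (160.0) and Cidec (116). By group, Adipoq, the adiponectin gene, had 149.8 normalised reads in G4, 129 in G3, 90.7 in G2 and 156 in G1, and the fat cell coat gene Plin1 had 121 in G4, 133 in G3, 103 in G2 and 152 in G1. Of 14 adipocyte markers 13 had a total of at least 100, and their summed level was 49706 in G4, 43116 in G3, 45951 in G2 and 37477 in G1, most of it from Car3, which muscle also expresses. Without Car3 and Fabp4, which were left out after their values were seen, it was 1194 in G4, 1102 in G3, 1081 in G2 and 1600.0 in G1. For G4 against G2, 2 of the 13 were called higher in the authors' deposited table, Fabp4 and Trarg1 (1.15), against 1.02% of 14539 genes. The median log2 of the 13 was 0.12. For G3 against G1 the median was -0.20 with 0 called, against 0.21% of 28997 genes. In the averaged effect of G3 and G4 over G1 and G2 the median was 0.01. There 1 of the 13 was called higher, Trarg1 (0.89, adjusted p = 0.0142), and 0 lower, against 1.21% and 0.439% of 15494 genes. For the interaction the median was 0.54, with 11 of 13 positive and 0 called, against 0.00645% of genes. The brown fat marker Ucp1 was not among the genes listed, and Elovl3 had a mean of 0.33 reads. The part of fat cells in the changes above was not tested.

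Markers of other cells and of fibre types gave no call in any of the 4 comparisons, and their summed levels are given without a test. With at most 1.38% of all genes called in a comparison, counts of 0 in lists of this size are near the background. The 10 macrophage markers summed to 1769 normalised reads in G4, 2156 in G3, 1777 in G2 and 2261 in G1, and none of 5 listed neutrophil markers reached a total of 100. The 5 erythroid genes summed to 3687 in G4, 4234 in G3, 2788 in G2 and 4463 in G1, with 0 of 5 called. Their sum was lowest in G2, where all of the 10 genes but Plin3 and G0s2 were lowest too. Slow fibre markers summed to 645320.3 in G4, 597240.1 in G3, 762060.1 in G2 and 596317 in G1, highest in G2, with 0 of 8 called. The 8 fast fibre markers summed to 1002299 in G4, 961107 in G3, 1096491 in G2 and 1165299 in G1, with 0 of 8 called. In the averaged effect of G3 and G4 over G1 and G2, 7 of the 10 droplet genes were called. All 8 fast fibre markers had negative values there, with a median of -0.31 and 0 called against 1.65% of all genes. The lowest, Actn3 (-1.06) and Myh4 (-1.01), had standard errors of 0.86 and 1.25. The 8 slow fibre markers had a median of -0.15 there, with 2 positive and 0 called. The 6 endothelial markers summed to 12092 in G4, 11341 in G3, 10278 in G2 and 11116 in G1, with 0 called. The endothelial sum was lowest in G2 as well. The part of these cells and fibres in the values of the 10 genes was not tested.

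The 10 genes fell into classes by their variation between mice of a group, as the deposited errors imply it under a negative binomial model. It was 49.4% for Cidec and 42.3% for G0s2, higher than in 97.8% and 95.7% of 15494 genes that reached a total of 100. For the other 8 it ran from 9.73% for Pnpla2 to 15.6% for Cidea, beside a median of 13.2% over those genes. Among the 13 adipocyte markers with such a total it ran from 8.52% for Fabp4 to 54.6% for Plin1. Most lay above the range of the other 8 genes, such as Retn with 44.9%, Cfd with 39.6%, Lep with 39% and Adipoq with 35.1%. Only Pparg with 14.7% and Car3 with 15.4% lay within that range. Pparg, at a mean of 103 reads, has a level close to that of Cidec (116). The part of fat cells in the variation of Cidec was not tested. The values are those used in the deposited test, which may have been smoothed over genes.

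**Figure D4:**
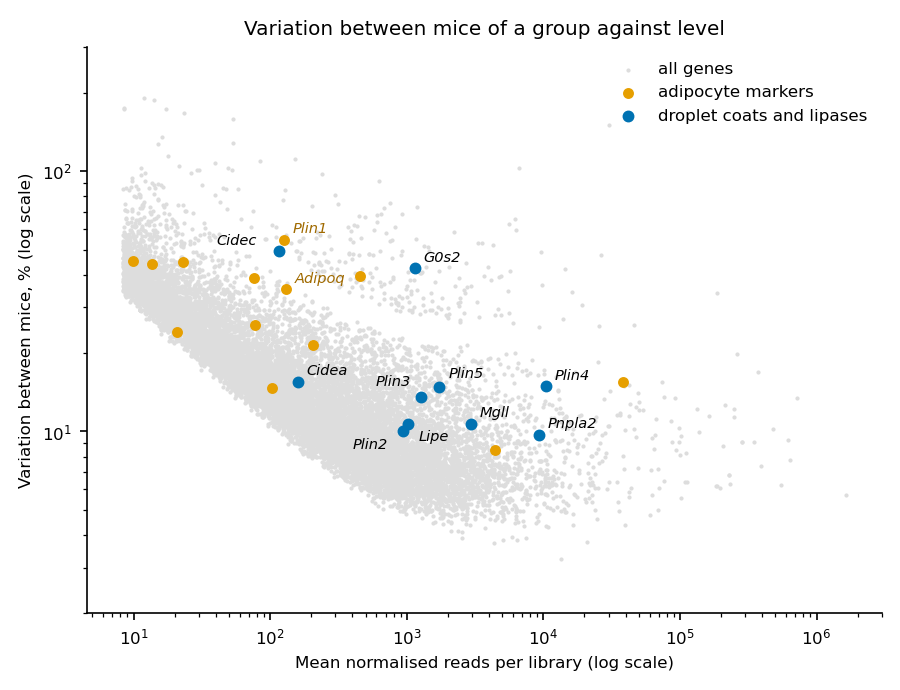
Variation between mice of a group in percent against the mean normalised reads per library, both on log scales, for all genes with a total of at least 100 (grey), adipocyte markers (orange) and the 10 genes (blue). Cidec (49.4%) and G0s2 (42.3%) lie high and the other 8 between 9.73% and 15.6%. Adipocyte markers run from Fabp4 (8.52%) to Plin1 (54.6%), most of them above the range of those 8.

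Likeness of pattern was measured as the distance between the log2 values of G2, G3 and G4 over G1, over 4 group means and 10668 genes with a total of at least 1000, for the 3 members with the smallest p. Nearest to Plin2 were Cd74, Gm50321, Papln, Nceh1 and Rnaset2a, at distances from 0.055 to 0.111, and Plin5 came at rank 8 with 0.128. Nearest to Lipe were Mlycd, Cx3cl1, Klf10, Dipk1b and Btg2 (0.109 to 0.152), with Plin5 at rank 14. Mgll had Lgals3bp, Uck2, Zfp771, Gm7332 and Fyn (0.049 to 0.121), and the nearest other member, Lipe, stood at rank 58. Plin3 was among the farthest from Plin2, at rank 10556. With 4 group means such distances describe these groups only.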

How the data were processed

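Libraries of soleus RNA from 12 mice were prepared with a kit that keeps strand and selects mRNA, as the labels' protocols state. The submitters' processing notes name RSEM 1.2.15, Bowtie2 2.1.0, edgeR, mm10 and GRCm38, without the role of each. The 4 tables the authors deposited list for each gene, per the file headers, its total (a signal scaled by library size), a p-value, an adjusted p-value, a signed fold change (a score) and its log2. Adjusted p-values were absent in the deposited tables for 14458 genes of G4 against G2 and 11245 of G4 against G3. The authors' test could not be rerun without values per library, so the authors' p-values were used.

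Implied standard errors come from log2 and p under a normal distribution. Values for G2 against G1 were rebuilt from the other 3 tables, and over 7792 listed genes the log2 differed by at most 1.0e-14. Group means follow from the total and the log2 values. Variation between mice was solved from the errors under a negative binomial model. Rebuilt tests (interaction, averaged effects) were adjusted by Benjamini-Hochberg over 15494 genes with a total of at least 100. In a simulation of 15494 genes, 100 were changed at each size of fold. The interaction recovered 61 at a fold of 2 and 82 at a fold of 4, with 7 false calls. The averaged effect of G3 and G4 over G1 and G2 recovered 88 and 99 with 14. The simulation took the variation between mice as known, so it cannot show errors from estimating it on 3 mice. Its folds exceed the interactions of Mgll (1.56-fold) and Lipe (1.43-fold), so recovery at those sizes was not measured. Lengths and coordinates are from GENCODE M21 on GRCm38, the longest coding transcript being used. Python 3.11.15, SciPy 1.17.1 and pandas 2.3.3 were used. The members and lists were chosen with earlier results of these data known. All 10 members are named. From other lists, called genes and those of highest total are named, and others were named after their values were seen. P-values measure the spread between mice of a group as the authors modelled it.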

Additional observations from a re-analysis of the deposited data

How the results depend on the processing

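The counts of called genes were recomputed with other adjustments, filters on totals, centring, removal of a trend (on total, length of transcript and GC content), and a fold change of at least 1.5. Of 46 such counts 45 stayed within 1.5 times. For the averaged effect of G3 and G4 over G1 and G2, the count was 2 (Plin5 and Cidea) with the fold change also required, against 7 without it, because the other 5 changed by less. Pnpla2 was the one gene whose call for G4 against G2 was lost, under 6 of 7 alternatives, with adjusted p-values from 0.0504 to 0.18 where the fold change was not required. In the averaged effect its adjusted p was 0.0712 with no filter and 0.104 after removal of the trend. Of 120 values per gene 4 reversed, all for G4 against G3 and close to 0: Plin4 at 0.002, Pnpla2 at -0.003 and Lipe at -0.024 after removal of the trend, and Lipe at -0.012 when centred on genes with a total of at least 10000. No mouse could be left out and no weighted group mean computed, since the tables used here hold no values per library. No paired analysis was possible because per-library values are needed for it and the labels share no replicate numbers. Depth limits Cidea and Cidec most, at means of 160.0 and 116 reads.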
